A study of Mus musculus with 6 samples.

Results

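The 10 genes described here encode neuronal-type subunits of the nicotinic acetylcholine receptor: Chrna3, Chrna4, Chrna5, Chrna6, Chrna7, Chrna9, Chrna10, Chrnb2, Chrnb3 and Chrnb4. They were taken by gene symbol from the authors' deposited table of RPKM values (read counts scaled to the length of the gene and to the size of the library), which lists 23029 genes, and each symbol had 1 entry. RNA was measured in 3 subsets of cells that were sorted by flow cytometry from mouse dorsal root ganglia, where the cell bodies of sensory neurons lie. All animals carried the genotype GINIP+/mcherry, that is, 1 copy of the GINIP gene held an mCherry reporter. The GINIP protein binds subunits of inhibitory G proteins, and the cells were also sorted by isolectin B4 (IB4), a plant lectin that binds many non-peptidergic nociceptors. DP cells (IB4+GINIP+) are labelled as Mrgprd+ neurons, and C-LTMR cells (IB4-GINIP+) as mechanoreceptors with C fibres and a low threshold. DN cells (IB4-GINIP-) are the remaining ones. Every mean ± SD is over the 2 libraries of a subset (n = 2). The sources used here do not give age, sex or the number of animals, and nothing says that the libraries of a subset are from different animals. The p-values therefore measure only the spread between libraries, which may be technical.

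A nicotinic receptor is a ring of subunits around a cation channel that acetylcholine or nicotine opens. Most neuronal receptors join alpha subunits, which carry the main part of the acetylcholine site, with beta subunits, and the mixture sets how the receptor responds. Sensory neurons of the dorsal root ganglion are known to respond to nicotinic agonists, and in mice Chrna6 has been linked to mechanical pain sensitivity.

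The subsets carried their expected markers and differed in the level of markers of other cells. Mrgprd was at 220 and 277 RPKM in DP libraries, 1.32 and 2.01 in C-LTMR libraries and 0.345 and 0.953 in DN libraries, and Th at 48.8 and 61.7 in DP, 1017 and 1038 in C-LTMR and 31.7 and 14.2 in DN. DN libraries also held RNA of other cells. The summed RPKM of 8 endothelial markers was 211 and 365 in DN, against 3.12 and 1.78 in DP and 0.537 and 0.301 in C-LTMR, with none at 0 in both libraries of a subset. The summed RPKM of 10 glial markers was 3125 and 5625 in DN, against 784 and 896 in DP and 1630 and 1854 in C-LTMR. Among markers of peptidergic and myelinated neurons, the peptide genes Calca and Tac1 were highest in DN, while the neurofilament gene Nefh overlapped between subsets at 43.0 and 49.4 RPKM in DP, 49.7 and 30.7 in C-LTMR and 59.8 and 34.3 in DN. Over 15 pan-sensory-neuron genes the sum was 12038 and 11669 in DP, 12100 and 11439 in C-LTMR and 11064 and 8202 in DN. This sum hides differences of single genes in both directions. Gap43 was at 83.7 and 64.0 in DP, 178 and 165 in C-LTMR and 646 and 560 in DN. Syt1 was at 133 and 140 in DP, 151 and 170 in C-LTMR and 41.6 and 31.6 in DN. In such bulk samples, fewer cells of a type and less RNA per cell cannot be told apart. Depth, estimated from the steps between low RPKM values of single-exon genes, lay between 32.3 and 42.1 M reads per library.

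The make-up of subunit RNA differed between the subsets in alpha and in beta subunits. Chrna6 and Chrnb2 made up nearly all subunit RNA in DP cells. C-LTMR cells held Chrna4, Chrnb2 and Chrna6, and DN cells held Chrna6, Chrnb3, Chrnb2 and Chrnb4. The summed RPKM of the 10 subunits was 48.7 and 51.95 in DP, 23.7 and 24.95 in C-LTMR, and 28.3 and 22.1 in DN, so the DP libraries stood above the other 4 and the C-LTMR and DN libraries overlapped.

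**Figure D1:**
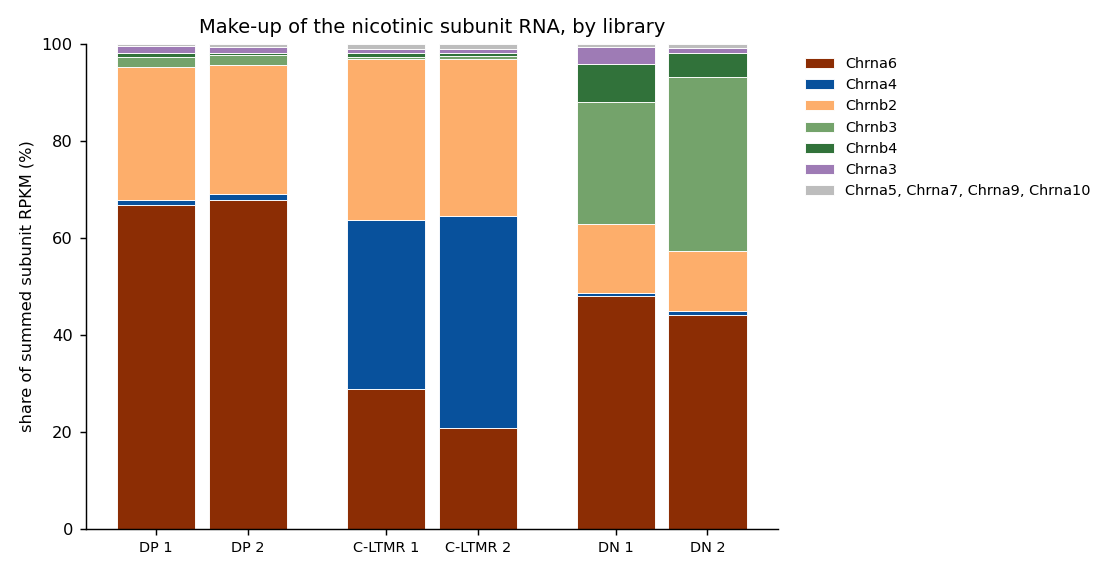
Share of each subunit in the summed RPKM of the 10 subunits (vertical axis, percent), with 1 bar for each library. Chrna6 fills 66.7% and 67.7% of the DP bars, Chrna4 fills 34.9% and 43.6% of the C-LTMR bars, and Chrnb3 fills 25.1% and 35.8% of the DN bars.

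RPKM is a level per length of gene, so levels of different subunits are set side by side within a library. The RNA was amplified, and whether all genes were amplified alike was not tested, so shares and ratios describe RPKM and not molecules. Of the summed RPKM, Chrna6 held 67.2% ± 0.703 in DP and 24.9% ± 5.67 in C-LTMR, against 46.1% ± 2.69 in DN. Chrna4 held 1.22% ± 0.159 in DP and 39.2% ± 6.14 in C-LTMR, against 0.699% ± 0.0499 in DN. Chrnb2 took a similar share in both GINIP+ subsets, at 27.0% ± 0.596 in DP and 32.8% ± 0.393 in C-LTMR, against 13.3% ± 1.15 in DN. Chrnb3 held 2.04% ± 0.0596 in DP and 0.512% ± 0.00186 in C-LTMR, against 30.5% ± 7.57 in DN. Chrnb4 held 0.721% ± 0.307 in DP and 0.621% ± 0.0723 in C-LTMR, against 6.46% ± 2.07 in DN. Among beta subunits alone, Chrnb2 was 90.7% ± 0.568 in DP and 96.7% ± 0.162 in C-LTMR, against 26.7% ± 4.59 in DN. Beta subunits together made up 29.8% ± 0.843 of the summed RPKM in DP and 33.9% ± 0.463 in C-LTMR, against 50.2% ± 4.35 in DN. With 2 libraries against 2, an exact permutation test of a share cannot give a p below 0.333, so the shares are given as a description.

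Ratios within a library do not change when all its values are multiplied by the same factor. Quantile normalization is not such a scaling and can change them. The ratio of Chrna6 to Chrna4 RPKM was 60.1 and 50.7 in DP libraries, 0.827 and 0.479 in C-LTMR libraries, and 65.3 and 66.5 in DN libraries. C-LTMR was thus the subset whose libraries held more Chrna4 than Chrna6. The ratio of Chrna6 to Chrnb2 was 2.43 and 2.55 in DP, 0.873 and 0.641 in C-LTMR, and 3.40 and 3.54 in DN. The ratio of Chrnb3 to Chrnb2 was 0.0727 and 0.0782 in DP, 0.0154 and 0.0158 in C-LTMR, and 1.78 and 2.87 in DN, so that Chrnb3 stood above Chrnb2 in both DN libraries and below it in the other 4.

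**Figure D2:**
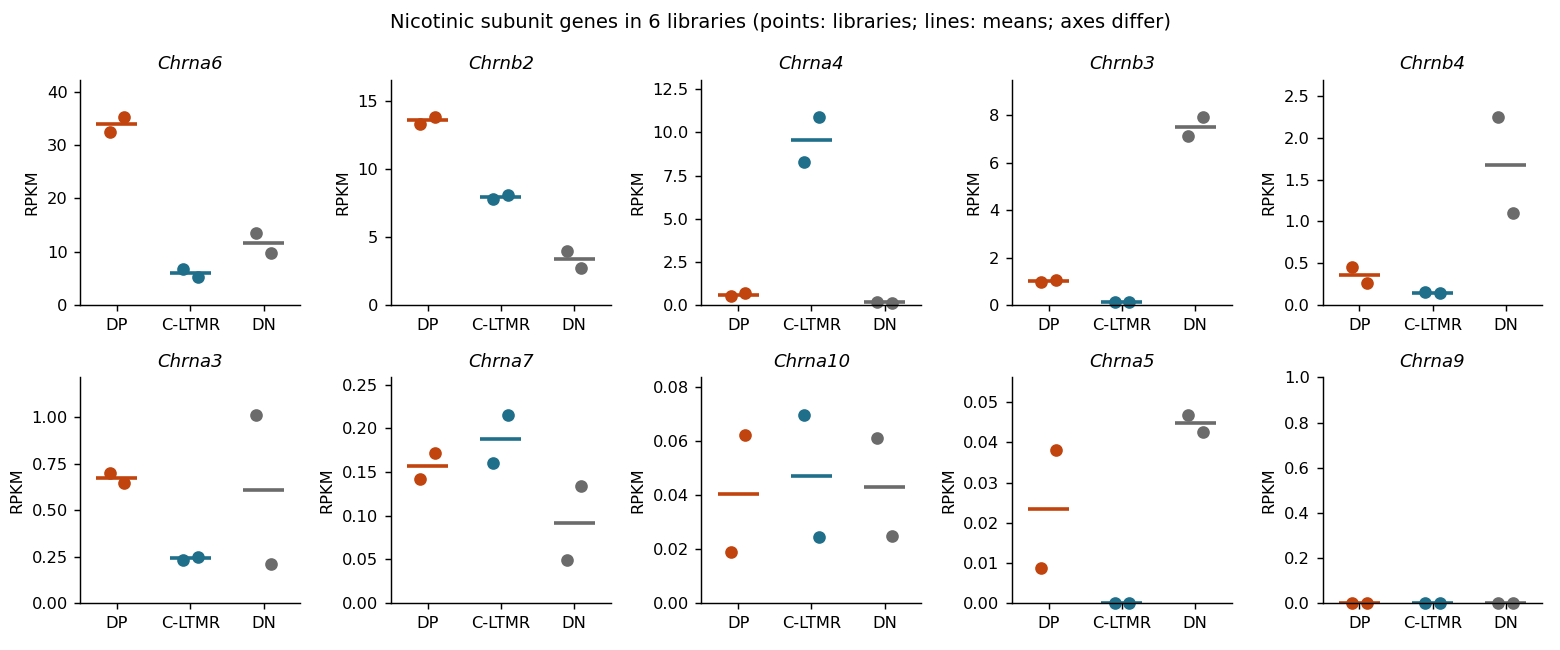
RPKM of the 10 subunit genes (vertical axes start at 0 and differ between panels) in the 2 libraries of each subset (points) with their mean (line). Chrna6 lies between 32.5 and 35.2 in DP, Chrna4 between 8.28 and 10.9 in C-LTMR and Chrnb3 between 7.12 and 7.91 in DN.

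The tests of the single subunits are limma tests on log2(RPKM + 0.1) over the 15544 genes that reached 0.1 RPKM in at least 2 libraries. Fold changes are on this scale and understate the change of low genes. Calls needed a p under 0.05 after Benjamini-Hochberg adjustment over all genes tested (the limma adjusted p below) and a log2 fold change of 1 or more in either direction. Of the 10 subunits, 7 were tested, each at 0.1 RPKM or more in at least 5 libraries, and Chrna5, Chrna9 and Chrna10 were below the filter. In DP over C-LTMR, 3 of the 7 were called, 2 higher and 1 lower (of all genes tested 15.2% were called, 6.65% higher and 8.52% lower). In DP over DN, 5 were called, 3 higher and 2 lower (of all genes tested 33.3%, 7.75% higher and 25.5% lower). In C-LTMR over DN, 4 were called, 2 higher and 2 lower (of all genes tested 32.1%, 8.58% higher and 23.5% lower). The median absolute log2 fold change of the 7 was 1.18, 1.55 and 1.24 in these comparisons, against 0.297, 0.583 and 0.543 over all genes tested. Comparisons that share a subset share its libraries, so the 3 counts are not separate evidence.

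Of the alpha subunits that form the acetylcholine site with a beta subunit, Chrna6 was the most abundant in DP and DN. Chrna6 (Entrez 11440, chromosome 8, 27403212 to 27413944, GRCm38, minus strand) was at 32.5 and 35.2 RPKM in DP, 6.85 and 5.20 in C-LTMR, and 13.6 and 9.76 in DN. The 3 subsets did not overlap, with DP highest and C-LTMR lowest. It was higher in DP than in C-LTMR (log2 fold change 2.48, SE 0.19, limma adjusted p = 0.000234) and higher in DP than in DN (1.55, SE 0.19, limma adjusted p = 0.000626). C-LTMR over DN passed on p but not on fold (log2 fold change -0.94, limma adjusted p = 0.00581). It was called in the authors' TMM-normalized table (-1.01), with values scaled to pan-sensory-neuron genes (-1.35), without C-LTMR replicate 1 (-1.13) and without DN replicate 2 (-1.17). In DP the mean of Chrna6 stood above that of 89.9% of all genes in the table.

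Chrna4, which pairs with Chrnb2 in the receptor that binds nicotine with high affinity in brain, was largely a C-LTMR transcript (Entrez 11438, chromosome 2, 181022311 to 181039177, minus strand). It was at 0.541 and 0.694 RPKM in DP, 8.28 and 10.9 in C-LTMR, and 0.208 and 0.147 in DN, with no overlap between subsets. It was lower in DP than in C-LTMR (log2 fold change -3.75, SE 0.23, limma adjusted p = 0.000108) and higher in C-LTMR than in DN (5.12, SE 0.23, limma adjusted p = 1.15e-05). It was also higher in DP than in DN (1.37, limma adjusted p = 0.00221), but with a pseudocount of 1 RPKM this difference was 0.46 and fell below the fold criterion.

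Chrna3, the alpha subunit of the main receptor of autonomic ganglia (Entrez 110834, chromosome 9, 55011343 to 55026559, minus strand), was at 0.701 and 0.644 RPKM in DP, 0.234 and 0.248 in C-LTMR, and 1.01 and 0.208 in DN. The DN libraries lay on either side of both other subsets. None of the 3 comparisons was called: the log2 fold change was 1.18 in DP over C-LTMR (SE 0.54, limma adjusted p = 0.159), 0.40 in DP over DN (limma adjusted p = 0.555) and -0.78 in C-LTMR over DN (limma adjusted p = 0.258). DP over C-LTMR, where the libraries did not overlap, was called when only the 4 libraries compared were fitted (1.18, limma adjusted p = 0.00837), without DN replicate 1 (0.00812) and without DN replicate 2 (0.00811). Without DN replicate 1, Chrna3 was called higher in DP than in DN (1.32, limma adjusted p = 0.00511) and C-LTMR over DN was 0.14. Without DN replicate 2, it was called lower in C-LTMR than in DN (-1.71, limma adjusted p = 0.00338) and DP over DN was -0.53. Of 5 markers of autonomic neurons, Dbh was at 0 RPKM in both DP libraries, 0.0120 and 0 in C-LTMR, and 0.346 and 0.201 in DN. Phox2a was at 0.0507 and 0.0828 in DP, 0 and 0 in C-LTMR, and 0.0686 and 0.327 in DN. Npy was at 0.740 and 0.239 in DP, 0.590 and 0 in C-LTMR, and 0.141 and 0.447 in DN. Hand1 and Hand2 were above 0 in DN replicate 1 only. The summed RPKM of the 5 was 0.791 and 0.322 in DP, 0.602 and 0 in C-LTMR, and 0.628 and 0.975 in DN, with 3 at 0 in both DP libraries, 3 in both C-LTMR libraries and 0 in both DN libraries. Their part in the level of Chrna3 was not tested.

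Chrna7, which forms receptors without other subunits (Entrez 11441, chromosome 7, 63098692 to 63212526, minus strand), was low throughout, at 0.142 and 0.171 RPKM in DP, 0.160 and 0.215 in C-LTMR, and 0.0491 and 0.133 in DN. All 6 libraries were above the level of 3 reads, which for its longest annotated transcript lies between 0.0253 and 0.0330 RPKM. None of its comparisons was called (log2 fold change -0.16, 0.46 and 0.62 in DP over C-LTMR, DP over DN and C-LTMR over DN, SE 0.28), and the values against DN moved when a DN library was left out. Without DN replicate 1 DP over DN was 0.13 and C-LTMR over DN 0.29, and without DN replicate 2 they were 0.78 and 0.94. After quantile normalization Chrna7 was called higher in DP than in DN (1.17, limma adjusted p = 0.00739) and higher in C-LTMR than in DN (1.35, limma adjusted p = 0.0042).

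Chrnb2, the beta subunit that partners Chrna4 and can partner Chrna6 (Entrez 11444, chromosome 3, 89753456 to 89764632, minus strand), was graded across the subsets. It was at 13.4 and 13.8 RPKM in DP, 7.84 and 8.11 in C-LTMR, and 3.997 and 2.76 in DN, with no overlap. It was higher in DP than in DN (log2 fold change 2.0, SE 0.17, limma adjusted p = 0.000137) and higher in C-LTMR than in DN (1.24, limma adjusted p = 0.00113). The second of these fell below the fold criterion with values scaled to pan-sensory-neuron genes (0.83) and without DN replicate 2 (0.98). DP over C-LTMR passed on p and not on fold (0.76, SE 0.17, limma adjusted p = 0.0189).

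Chrnb3, an accessory subunit that joins receptors with Chrna6 in brain (Entrez 108043, chromosome 8, 27368711 to 27399730, plus strand), was highest in DN and lowest in C-LTMR. It was at 0.971 and 1.08 RPKM in DP, 0.121 and 0.128 in C-LTMR, and 7.12 and 7.91 in DN. No 2 subsets overlapped, and the replicates of each lay close together. It was lower in DP than in DN (log2 fold change -2.76, SE 0.17, limma adjusted p = 3.48e-05), lower in C-LTMR than in DN (-5.08, SE 0.17, limma adjusted p = 5.38e-06) and higher in DP than in C-LTMR (2.32, SE 0.17, limma adjusted p = 0.000182). With a pseudocount of 1 RPKM the last of these was 0.85 and was not called.

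Chrnb4, the beta partner of Chrna3 in autonomic ganglia (Entrez 108015, chromosome 9, 55028156 to 55048544, minus strand), was at 0.457 and 0.262 RPKM in DP, 0.159 and 0.142 in C-LTMR, and 2.24 and 1.10 in DN. Both DN libraries were above all others. It was lower in DP than in DN (log2 fold change -1.90, SE 0.37, limma adjusted p = 0.00419) and lower in C-LTMR than in DN (-2.74, SE 0.37, limma adjusted p = 0.000867). DP over DN was not called with a pseudocount of 1 RPKM (-0.95) or after quantile normalization (-0.996, limma adjusted p = 0.0762). DP over C-LTMR was not called (0.84, limma adjusted p = 0.138; 0.53 without DP replicate 1).

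Chrna5, Chrna9 and Chrna10 were at or near the limit of detection. Chrna5, an accessory subunit, was at 0.00868 and 0.0381 RPKM in DP, 0 and 0 in C-LTMR, and 0.0468 and 0.0427 in DN, where 3 reads correspond to between 0.0291 and 0.0380 RPKM. Chrna10 was at 0.0189 and 0.0623 in DP, 0.0698 and 0.0246 in C-LTMR, and 0.0613 and 0.0247 in DN, so the subsets overlapped and 3 of the 6 libraries were above the level of 3 reads. Chrna9, which with Chrna10 forms the receptor of inner ear hair cells, was listed at 0 in all 6 libraries, which allows up to 0.0387 to 0.0504 RPKM. Such limits cover only counting error, because amplified RNA without molecular identifiers gives reads that are not independent molecules.

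**Figure D3:**
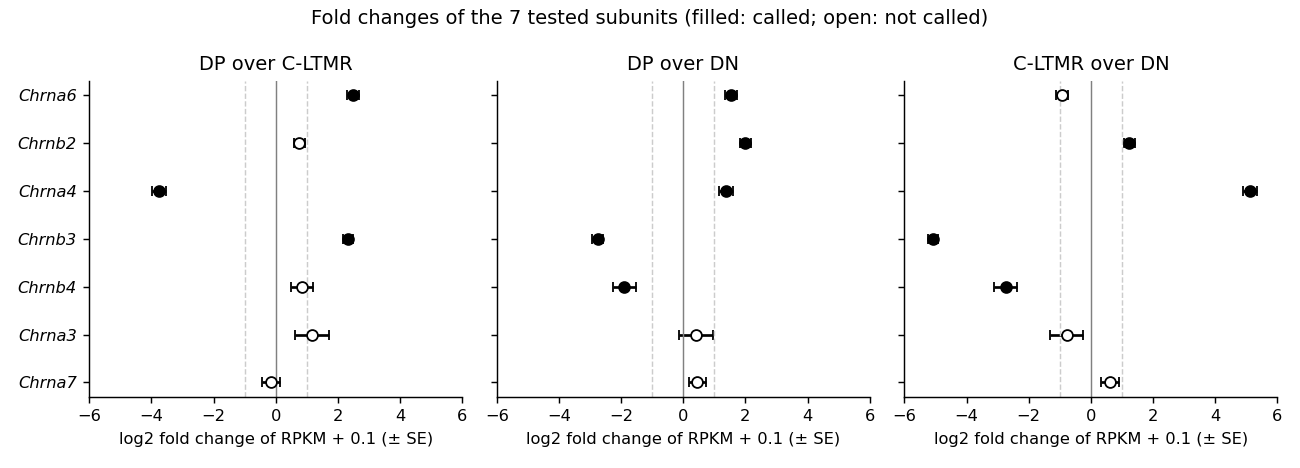
Log2 fold change of RPKM + 0.1 (horizontal axes) with its SE for the 7 tested subunits in the 3 comparisons. Filled points were called, open points were not, and dashed lines mark the fold criterion. Chrna4 and Chrnb3 span the widest range, at 5.12 and -5.08 in C-LTMR over DN.

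Within each subset the subunits fell in a different order of level. In DP the order by mean RPKM was Chrna6 (33.8 ± 1.90), Chrnb2 (13.6 ± 0.322), Chrnb3 (1.03 ± 0.0769), Chrna3 (0.672 ± 0.0410) and Chrna4 (0.617 ± 0.108). Chrna3 and Chrna4 overlapped there. In C-LTMR it was Chrna4 (9.58 ± 1.84), Chrnb2 (7.98 ± 0.193) and Chrna6 (6.02 ± 1.16), followed by Chrna3 (0.241 ± 0.00987). The libraries of Chrna4 and Chrnb2 did not overlap, but their means differed by less than the SD of Chrna4. In DN it was Chrna6 (11.7 ± 2.71), Chrnb3 (7.51 ± 0.562), Chrnb2 (3.38 ± 0.876) and Chrnb4 (1.67 ± 0.807).

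Several subunit genes lie side by side in the genome. Chrnb3 and Chrna6 lie on opposite strands of chromosome 8 with 3481 bases between them, tail to tail. The ratio of Chrna6 to Chrnb3 RPKM was 33.5 and 32.6 in DP, 56.6 and 40.7 in C-LTMR, and 1.91 and 1.23 in DN. The Euclidean distance between their 6 centred log2 values was 4.91, against a median of 5.03 between Chrnb3 and all genes tested. Chrna5, Chrna3 and Chrnb4 form a cluster on chromosome 9. Chrna3 and Chrnb4 lie on the same strand with 1596 bases between them, and their distance was 2.59, against a median of 2.05 between Chrna3 and all genes tested. The ratio of Chrnb4 to Chrna3 RPKM was 0.651 and 0.407 in DP, 0.681 and 0.573 in C-LTMR, and 2.22 and 5.29 in DN. Chrna5, on the other strand, was near the limit of detection, and the sources used here do not say whether counting used the strand.

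RefSeq promoter sequences (GRCm38.p6) were available for 8 of the 10 genes, not for Chrna6 and Chrnb3. Those of Chrna4, the C-LTMR subunit, of Chrnb2, the beta subunit of both GINIP+ subsets, and of the clustered pair Chrna3 and Chrnb4 are shown because their levels separate the subsets, or, for Chrna3, for comparison with its neighbour. Each is the 250 bases before the start of the gene, 5′ to 3′ on the strand of the gene. Capitals mark GC boxes, the letters GGGCGG on either strand, where factors of the Sp family can bind. The positions are chr2:181039178-181039427 for Chrna4, chr3:89764633-89764882 for Chrnb2, chr9:55026563-55026812 for Chrna3 and chr9:55048545-55048794 for Chrnb4, all on the minus strand.
Chrna4: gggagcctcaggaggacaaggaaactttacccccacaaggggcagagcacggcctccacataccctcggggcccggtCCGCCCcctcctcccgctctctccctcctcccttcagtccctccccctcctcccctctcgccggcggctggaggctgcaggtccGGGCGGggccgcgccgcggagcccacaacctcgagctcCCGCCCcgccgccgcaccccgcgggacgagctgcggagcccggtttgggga
Chrnb2: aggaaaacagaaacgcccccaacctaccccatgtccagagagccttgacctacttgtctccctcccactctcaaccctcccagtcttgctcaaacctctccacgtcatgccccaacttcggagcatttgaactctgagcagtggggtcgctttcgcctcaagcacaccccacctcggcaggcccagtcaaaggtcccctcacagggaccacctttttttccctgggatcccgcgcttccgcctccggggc
Chrna3: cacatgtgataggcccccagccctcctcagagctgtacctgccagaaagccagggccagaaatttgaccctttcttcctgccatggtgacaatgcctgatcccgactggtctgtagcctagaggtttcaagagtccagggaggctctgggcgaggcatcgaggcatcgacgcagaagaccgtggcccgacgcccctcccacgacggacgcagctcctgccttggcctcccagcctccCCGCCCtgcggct
Chrnb4: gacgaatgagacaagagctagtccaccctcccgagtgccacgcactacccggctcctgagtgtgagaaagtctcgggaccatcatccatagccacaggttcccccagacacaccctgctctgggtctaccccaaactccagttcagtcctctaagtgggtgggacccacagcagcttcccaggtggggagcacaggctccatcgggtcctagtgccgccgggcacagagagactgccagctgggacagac

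The promoter of Chrna4 was the richest in G and C of these, at 74.4%, more than 95.4% of the 32851 mouse promoters, and held 24 CG dinucleotides and 3 GC boxes. Chrna3 had 63.2% G and C with 1 GC box, and Chrnb2 (59.6%) and Chrnb4 (61.2%) had 0. A GC box was found in 32.7% of all promoters over the same 250 bases. The E-box CANNTG had 0 matches in Chrna4, 1 in Chrnb2 and 2 each in Chrna3 and Chrnb4, and was found in 66.2% of all promoters. The letters TGTGGT, the core bound by RUNX factors, had 0 matches in all 4 and were found in 14% of promoters. A match is a description of letters, and no match says only that they are not in this window.

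The genes whose 6 library values lay nearest to those of each called subunit were found by the Euclidean distance of centred log2(RPKM + 0.1). Nearest to Chrna4 were the serotonin receptor gene Htr1d (distance 0.232), with 0.678 and 0.964 RPKM in DP, 10.3 and 12.9 in C-LTMR and 0.300 and 0.256 in DN, then the diacylglycerol kinase gene Dgkk (0.301) and Smyd1 (0.493). Nearest to Chrna6 were Clec7a (0.393), which was at 0 in both C-LTMR libraries and at most 0.436 RPKM in DP, the regulator of G protein signalling Rgs3 (0.433) and the neuropeptide precursor Nmb (0.446). Nmb was at 893 and 848 RPKM in DP, 182 and 173 in C-LTMR and 408 and 342 in DN. Nearest to Chrnb2 were Spock3 (0.114), Bahd1 (0.196) and Serpina3g (0.229). Chrnb3 lay nearest to the plasma membrane calcium pump gene Atp2b4 (0.449), C1qtnf1 (0.564) and Tmem173 (0.568). Chrnb4 lay nearest to the secreted signal gene Wnt4 (0.468) and the unnamed genes C920025E04Rik (0.534) and 5930412G12Rik (0.553).

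Other genes of acetylcholine signalling were read from the same fit as a list of 27, of which 21 passed the filter and 18 were called in at least 1 comparison. In DP over C-LTMR, 3 were called higher and 5 lower, beside 6.65% and 8.52% of all genes tested. In DP over DN, 5 were called higher and 12 lower, beside 7.75% and 25.5% of all genes. In C-LTMR over DN, 5 were called higher and 9 lower, beside 8.58% and 23.5% of all genes. Of the 21, 5 passed the filter through some subsets only, so that their differences were in part set by it: Slc5a7 and Chrm1 through DN, Chrm3 through C-LTMR, Chrm2 through DP and DN, and Colq through C-LTMR and DN. Of the 27, 6 were at 0.1 RPKM or less in every library: the subunits Chrna2, Chrnd and Chrng, the choline acetyltransferase gene Chat, the vesicular acetylcholine transporter gene Slc18a3 and the muscarinic receptor gene Chrm5. Chat, the enzyme that makes acetylcholine, was above 0 in 1 library only, C-LTMR replicate 1, at 0.0104 RPKM.

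**Figure D4:**
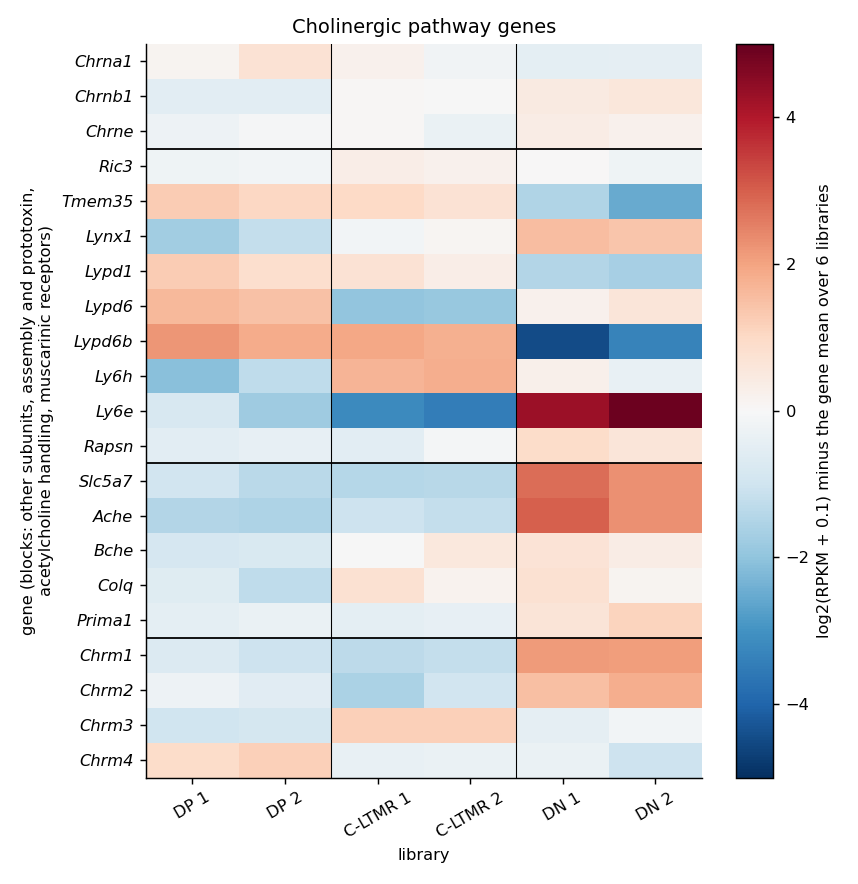
Level of the 21 tested genes of acetylcholine signalling in each library, as log2(RPKM + 0.1) minus the mean of the gene over the 6 libraries (colour). Lypd6b, Tmem35 and Lypd1 are high in the DP and C-LTMR columns, and Ly6e, Ache, Slc5a7, Chrm1 and Chrm2 in the DN columns.

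Of 9 genes that help assemble nicotinic receptors or encode prototoxins that bind to them, 2 were higher and 2 lower in DP over C-LTMR (15.2% of all genes tested were called). Of the same 9, 4 were higher and 4 lower in DP over DN (33.3% of all genes were called), and likewise in C-LTMR over DN (32.1%). Tmem35, which encodes a chaperone needed to assemble several nicotinic receptors, was at 78.7 and 67.0 RPKM in DP, 65.5 and 54.3 in C-LTMR, and 11.5 and 5.70 in DN. Both GINIP+ subsets exceeded DN (log2 fold change 3.15 in DP and 2.86 in C-LTMR, limma adjusted p = 0.000208 and 0.00031). The chaperone gene Ric3 was at 5.15 and 5.42 in DP, 7.68 and 7.09 in C-LTMR and 6.12 and 5.24 in DN, and was not called in any comparison. Rapsn, which clusters the receptors of muscle, was at 1.804 and 1.92 in DP, 1.8 and 2.46 in C-LTMR and 5.04 and 4.04 in DN. It was lower than in DN in both (-1.24 and -1.06), but neither call held with a pseudocount of 1 RPKM or after quantile normalization, and that of C-LTMR was also lost with size factors, without C-LTMR replicate 1 and without DN replicate 1.

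Prototoxins are small membrane-anchored or secreted proteins of the Ly6 family, some of which alter nicotinic receptors. Lypd6b was at 19.6 and 15.3 RPKM in DP, 16.1 and 14.4 in C-LTMR and 0.0898 and 0.323 in DN (log2 fold change 5.95 in DP over DN and 5.76 in C-LTMR over DN, limma adjusted p = 3.21e-05 and 3.42e-05). Lypd1 was at 11.7 and 8.61 in DP, 7.89 and 6.04 in C-LTMR and 1.68 and 1.45 in DN (2.61 and 2.08, limma adjusted p = 8.29e-05 and 0.000209). Both were thus higher in the GINIP+ subsets than in DN, and neither was called between DP and C-LTMR.

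Lypd6 and Ly6h separated DP from C-LTMR in opposite directions. Lypd6 was at 4.81 and 4.31 RPKM in DP, 0.303 and 0.330 in C-LTMR and 1.74 and 2.34 in DN (log2 fold change 3.48 in DP over C-LTMR, limma adjusted p = 8.08e-05). It was lower in C-LTMR than in DN (-2.35), and higher in DP than in DN (1.13), a difference that was below the fold criterion with a pseudocount of 1 RPKM (0.87), scaled to pan-sensory-neuron genes (0.86) and without DN replicate 1 (0.93). Ly6h was at 2.48 and 4.38 in DP, 35.2 and 38.3 in C-LTMR and 12.8 and 8.30 in DN (-3.44 in DP over C-LTMR, limma adjusted p = 0.000326, and 1.82 in C-LTMR over DN, limma adjusted p = 0.00202), and it was lower in DP than in DN (-1.61). Lynx1, which dampens nicotinic receptors in mouse brain, was at 3.07 and 4.49 in DP, 9.43 and 11.0 in C-LTMR and 30.4 and 27.6 in DN, and all 3 comparisons were called (-1.43, -2.93 and -1.50). Ly6e was at 1.54 and 0.737 in DP, 0.216 and 0.161 in C-LTMR and 54.7 and 84.6 in DN (-5.86 in DP over DN and -7.89 in C-LTMR over DN). The summed endothelial and glial markers given above were also higher in DN replicate 2 than in replicate 1. The largest part of the glial sum was Fabp7, at 1282 and 3542 in DN. Of the glial markers, Mbp (392 and 340), Prx (28.3 and 20.8) and Pmp22 (768 and 680) were lower in DN replicate 2, and the others higher. The part of these cells in the level of Ly6e was not tested. The call of Ly6e in DP over C-LTMR (2.03) was lost with a pseudocount of 1 RPKM (0.82) and with no filter on low values (limma adjusted p = 0.0713).

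Of 7 genes that handle acetylcholine, 5 were tested, and of these Ache, Bche and Prima1 reached the filter in every library. All 3 were called lower in DP than in DN (25.5% of all genes tested were), and Ache and Prima1 lower in C-LTMR than in DN (23.5% of all genes were). Ache, the esterase that breaks acetylcholine down, was at 3.91 and 3.71 RPKM in DP, 5.27 and 4.82 in C-LTMR and 88.4 and 53.8 in DN (log2 fold change -4.14 and -3.75 against DN, limma adjusted p = 2.22e-05 and 2.89e-05). Prima1, which anchors that esterase in the membrane, was at 0.888 and 0.982 in DP, 0.872 and 0.926 in C-LTMR and 2.05 and 2.91 in DN (-1.30 and -1.35), and lost both calls with a pseudocount of 1 RPKM and after quantile normalization. Slc5a7, the choline transporter of cholinergic nerve endings, was at 0.0826 and 0.0403 in DP, 0.0339 and 0.0359 in C-LTMR and 2.38 and 1.66 in DN (-3.70 and -3.95), where alone it reached the filter. Bche, a second cholinesterase, and Colq, which anchors Ache at the muscle endplate, were called lower in DP than in both other subsets. Colq passed the filter only through C-LTMR and DN, so its calls were in part set by the filter. Bche was at 0.264 and 0.286 in DP, 0.551 and 0.848 in C-LTMR and 0.963 and 0.749 in DN, and Colq at 0.0587 and 0 in DP, 0.310 and 0.170 in C-LTMR and 0.308 and 0.164 in DN. These calls (log2 fold change -1.07 and -1.40 against C-LTMR, -1.34 and -1.38 against DN) were each lost with a pseudocount of 1 RPKM and under other alternatives. Colq in DP was not called without DP replicate 2 (-1.07 against C-LTMR and -1.05 against DN), against C-LTMR without C-LTMR replicate 1 (-1.10) or against DN without DN replicate 1 (-1.07). Bche against C-LTMR was not called without DP replicate 1 (-1.03), without DP replicate 2 (-1.11) or without C-LTMR replicate 2 (-0.80).

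Of the muscarinic receptors, the G protein-coupled receptors of acetylcholine, Chrm4 had the highest mean in DP and in C-LTMR, while Chrm2 and Chrm1 overlapped at the top in DN. Chrm4, which couples to inhibitory G proteins, was at 1.78 and 2.17 RPKM in DP, 0.674 and 0.692 in C-LTMR and 0.697 and 0.395 in DN (log2 fold change 1.40 in DP over C-LTMR, limma adjusted p = 0.0085, and 1.72 in DP over DN, limma adjusted p = 0.00154). DP over C-LTMR was not called with a pseudocount of 1 RPKM, with no filter or without DP replicate 2. Chrm2, of the same coupling, was at 0.223 and 0.160 in DP, 0.0299 and 0.0970 in C-LTMR and 0.998 and 1.26 in DN (-2.08 and -2.94 against DN). Chrm1 and Chrm3, which couple to Gq, passed the filter in 1 subset each. Chrm1 was at 0.0555 and 0.0208 in DP, 0 and 0.00985 in C-LTMR and 1.005 and 0.976 in DN, and Chrm3 at 0.0075 and 0.0165 in DP, 0.387 and 0.389 in C-LTMR and 0.0567 and 0.0932 in DN. With a pseudocount of 1 RPKM all calls of muscarinic genes fell below the fold criterion except that of Chrm2 in C-LTMR over DN.

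Among muscle-type subunits, Chrnb1, Chrna1 and Chrne passed the filter. Chrnb1 was at 0.755 and 0.752 RPKM in DP, 1.18 and 1.12 in C-LTMR and 1.59 and 1.72 in DN, and was called lower in DP than in DN (log2 fold change -1.04, limma adjusted p = 0.00172). That call was lost with a pseudocount of 1 RPKM (-0.60), with size factors (-0.86), after quantile normalization (-0.16) and without DN replicate 2 (-0.98). The muscle actin gene Acta1 was at 0.407 and 0.356 in DP, 2.18 and 2.69 in C-LTMR and 3.21 and 3.11 in DN, while the muscle myosin genes Myh1 and Myh4 were at 0 in all DP and DN libraries. Summed over 5 muscle markers, RPKM was 0.496 and 0.399 in DP, 2.28 and 2.77 in C-LTMR and 3.49 and 3.40 in DN, and their part in the level of Chrnb1 was not tested.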

How the data were processed

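RNA of 6 libraries (3 subsets, 2 libraries each) was deposited in 2 tables. Per the labels' protocols, 50 ng of RNA was amplified and made into TruSeq libraries. CASAVA 1.8.2 and edgeR 2.6.2 are named, with build GRCm38 (mm10), in the submitters' processing notes, without their roles. The deposited RPKM table served for all values. The authors' deposited TMM-normalized table, a normalized signal for 6620 genes, lists 4 of the 10 subunits and served as an alternative.

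Depth was estimated from single-exon genes spanning under 4000 bases, as the number of reads per library for which the largest number of low RPKM values fall on whole reads. With it, 33.9% to 42.9% of low values were whole reads to within 0.02. Evenly spread values would give 4% at a fixed depth, but the depth was chosen from these same values. For most low values whole reads were not recovered, so no count model was fitted. The level of 3 reads used the longest GENCODE M21 transcript.

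All 6 libraries entered 1 limma 3.58.1 fit in R 4.3.3 (log2(RPKM + 0.1), eBayes with a trend, median prior degrees of freedom 3.58, 3 residual), tested on simulated data. Plots and sequence searches used Python 3.11.15. Text names all 10 subunits, every called gene of the pathway list and the 3 nearest genes of each called subunit. Alternatives changed the pseudocount, filter, scaling, table, libraries and variance model. Of 16 pan-sensory-neuron genes used for scaling, 15 were found in the table. The subunits and lists were chosen with earlier results of these data known. 1 marker of autonomic neurons is not reported here and was left out of their sum.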

Additional observations from a re-analysis of the deposited data

How the results depend on the processing

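Of 12 calls of single subunits, 8 were kept under every alternative in which the gene was tested and 4 were lost under at least 1. Of 39 calls of pathway genes 21 were kept in the same sense. The 39 include calls of Slc5a7, Chrm1, Chrm2, Chrm3 and Colq, whose differences were in part set by the filter. A gene missing from an alternative was not counted as a lost call. Leaving out 1 library leaves a share at the value of the other library. The sign of Chrna3, never called in the fit reported, turned in DP over DN without DN replicate 2 (-0.53), and in C-LTMR over DN after quantile normalization (0.12) and without DN replicate 1 (0.14). Without DN replicate 1 it was called in DP over DN (1.32), and without DN replicate 2 in C-LTMR over DN (-1.71).

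With a pseudocount of 1 RPKM, which lowers the fold of low genes by construction, 3 subunits were called in DP over DN, against 5, and 3 and 8 pathway genes in DP over C-LTMR and DP over DN, against 8 and 17. Over all genes 1192, 3140 and 3012 were called in DP over C-LTMR, DP over DN and C-LTMR over DN, against 2358, 5172 and 4993. In the TMM-normalized table, with fewer genes, the counts were 843, 1645 and 1562. There 3, 6 and 6 pathway genes were called in these comparisons, against 8, 17 and 14, but genes that it does not list could not be called. In DP over C-LTMR, Lynx1, Ly6h and Ly6e kept their calls in it, and Lypd6, Bche, Colq, Chrm3 and Chrm4 are not listed. Of the 8 pathway genes called in DP over C-LTMR, Bche, Colq and Chrm3 did not pass a filter of 1 RPKM. With no filter, Ly6e, Bche, Colq and Chrm4 kept their fold changes, at limma adjusted p = 0.0713, 0.0893, 0.128 and 0.0659. Over all genes, 1777 were called in DP over C-LTMR with no filter and 1828 with a filter of 1 RPKM. Pathway genes called in DP over C-LTMR numbered 4 and 5 with these settings. Without 1 library they numbered between 5 and 8, with 5 without DP replicate 2.

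Scaling moved the whole distribution. The median log2 fold change of all genes in DP over DN and C-LTMR over DN was -0.20 and -0.10, and it was -0.47 and -0.49 scaled to pan-sensory-neuron genes, 0.15 and 0.17 after quantile normalization. Of calls, 23.3% and 26.7% were higher, against 15.9% and 16.0% with the first of these, 47.7% and 49.0% with the second, and 37.4% and 38.0% in the TMM-normalized table. Subunit fold changes against DN shift with it, and no tested subunit other than Chrna3 changed sign under the alternatives run.

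With the replicate number as a block, which the labels do not tie to a shared animal or day, 2442, 5208 and 5018 genes were called. Deviations of same-numbered libraries correlated at 0.286 (DP and C-LTMR), 0.0888 (DP and DN) and 0.23 (C-LTMR and DN). The block changed no call of a subunit.

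Depth limits Chrna5, Chrna9 and Chrna10, which lay at or below the level of a few reads.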
